A study of Homo sapiens with 4 samples.

Results

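The aminoacyl-tRNA synthetase genes were examined as 36 of the 57992 rows of the count table, taken by symbol: 20 genes for enzymes of the cytosol and 16 for enzymes of mitochondria, whose names end in 2. Symbols are the older ones used in the table (IARS is now IARS1, MARS is MARS1, and so on). All 36 members had 1 row each and passed the filter on low counts. RNA was measured by poly(A) sequencing in MOLM13 cells, a line from human acute myeloid leukaemia, in a derivative labelled VEN-R (resistant to venetoclax). Every library came from doxycycline-induced cells. In 2 libraries the induced short hairpin was a control (shCtrl, genotype given as WT), and in 2 it targeted PRMT9, a protein arginine methyltransferase (shPRMT9, genotype given as PRMT9 knockdown). No dose, induction time or hairpin sequence is given in the sources used here, and nothing says whether the 2 libraries of a group are separate cultures, so p-values and SDs measure only the spread between these libraries.

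Each synthetase joins 1 amino acid to the tRNAs that carry it, in a reaction that spends ATP, and so sets which amino acid a codon will receive. Cytosolic protein synthesis and the protein synthesis inside mitochondria use separate enzymes for most amino acids, all of them encoded in the nucleus. GARS and KARS are exceptions, since each gene gives rise to both forms, and EPRS joins the glutamate and proline enzymes in a single protein. Several cytosolic enzymes sit together in the multisynthetase complex. Many cytosolic synthetase genes are known targets of ATF4, the transcription factor of the integrated stress response, which binds DNA together with C/EBP proteins at composite sites. The comparison asked how RNA of these enzymes differed when PRMT9 was depleted, in a study whose title names inhibition of translation.

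Promoter sequences are shown first because the promoters that hold a composite ATF4 and C/EBP motif belong to the cytosolic enzymes with most of the largest falls. RefSeq promoter windows (GRCh38.p14, 250 bases before to 50 bases after a transcript start) were found for 30 members. DARS, LARS, VARS, YARS, AARS2 and VARS2 had no entry. The motif searched was TGATGNAA, on both strands, and a match is a description of the letters in this window, not evidence of binding. It was present for 7 of 16 cytosolic members with an entry and for 1 of 14 mitochondrial members, against 3.62% of all 35116 windows and 4.46% of all symbols when the windows of a gene are joined. A stretch of 100 bases is given for each, 5′ to 3′ on the strand of the gene, with the match in capitals.
IARS, chr9:92293673-92293772, minus strand: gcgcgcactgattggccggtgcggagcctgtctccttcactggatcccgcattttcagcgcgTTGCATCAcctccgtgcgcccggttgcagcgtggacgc
MARS, chr12:57487993-57488092, plus strand: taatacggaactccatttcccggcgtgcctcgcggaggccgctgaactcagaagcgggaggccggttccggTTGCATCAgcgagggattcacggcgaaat
GARS, chr7:30594803-30594902, plus strand: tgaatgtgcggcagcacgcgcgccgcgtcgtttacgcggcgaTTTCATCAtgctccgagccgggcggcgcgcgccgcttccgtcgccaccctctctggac
NARS, chr18:57621812-57621911, minus strand: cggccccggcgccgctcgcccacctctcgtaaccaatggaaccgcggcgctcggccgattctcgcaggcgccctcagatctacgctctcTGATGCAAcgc
AARS, chr16:70289640-70289739, minus strand: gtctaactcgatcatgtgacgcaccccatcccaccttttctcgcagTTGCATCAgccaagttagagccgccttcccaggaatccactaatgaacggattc
TARS, chr5:33440890-33440989, plus strand: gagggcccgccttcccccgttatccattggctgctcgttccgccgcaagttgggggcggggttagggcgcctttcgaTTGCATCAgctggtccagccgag
CARS, chr11:3057399-3057498, minus strand: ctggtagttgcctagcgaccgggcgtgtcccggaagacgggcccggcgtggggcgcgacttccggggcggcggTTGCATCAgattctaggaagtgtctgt
YARS2, chr12:32756041-32756140, minus strand: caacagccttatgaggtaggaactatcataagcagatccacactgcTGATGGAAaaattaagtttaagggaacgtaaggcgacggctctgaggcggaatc
In IARS, MARS, AARS, TARS and CARS the match reads TTGCATCA, and in NARS it is the same site on the other strand, TGATGCAA. That stricter form, chosen after the matches were seen, stood in 0.866% of all windows. GARS has TTTCATCA and YARS2 has TGATGGAA. Counted from the transcript start, with bases before it negative, the first base of the match was at -33 in GARS, -13 in IARS, -4 in MARS, -2 in CARS, 3 in TARS and 15 in NARS. The matches of AARS and YARS2 lay farther upstream, at -187 and -197. GARS, CARS and TARS each have 2 windows in the table, of which 1 holds the match.

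PRMT9 RNA checked the labels. Control shRNA replicates held 398 and 406 counts, and PRMT9 shRNA replicates 81 and 78 (log2 fold change -2.48, SE 0.12, adjusted p = 1.13e-11). Log2 fold changes here are PRMT9 shRNA over control shRNA, from edgeR's quasi-likelihood test on the counts of 15193 tested genes, and a gene is said to have risen or fallen at a Benjamini-Hochberg adjusted p below 0.05 over all of them. Total counts were between 28592902 and 33845172 per library. Of 8 myeloid markers, none was at 0 in any library, but CD68 was near the floor, with 4 and 5 counts in the controls and 9 and 10 after knockdown, and was not tested. The summed level of the 8 was 1514 to 1525 CPM (counts scaled to a common library size) in the controls and 2056 to 2057 CPM after knockdown. These markers moved in both directions: of 7 tested, 6 rose and MPO, of immature granulocytic cells, fell from 57.5 and 55.7 CPM to 40.45 and 41.45 CPM (log2 fold change -0.47, adjusted p = 3.49e-08). Of all genes tested, 68% were called as changed. LYZ, lysozyme, made up most of the rise of the summed level, with 609.3 and 604.7 CPM in the controls and 939.0 and 945.9 CPM after knockdown. ITGAM, an integrin of mature myeloid cells, rose 3.56-fold. The part of these marker changes in the levels of the synthetases was not tested. Of 16 markers of T, B, erythroid, epithelial and stromal cells, 8 to 10 were at 0 in each library and the sum was 0.926 to 1.41 CPM.

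Cytosolic synthetase RNA was lower after PRMT9 knockdown, and mitochondrial synthetase RNA was split. All 20 cytosolic members passed the test, 18 of them as falls and 2 as rises, with a median log2 fold change of -0.37. Of the 16 mitochondrial members 8 fell, 3 rose and 5 did not pass, with a median of -0.09. With upper-quartile scaling, 7 mitochondrial members fell and 4 rose, with a median of -0.0031, beside 0.089 over all genes tested. With a filter at 1 CPM the counts were also 7 and 4, with a median of -0.06, beside 0.0047 over all genes tested. In the main analysis the test called 68% of all genes tested (34.5% as falls and 33.4% as rises), and their median was 0.00096. A call of change by itself is therefore common in these libraries. A fall by more than 0.5 on the log2 scale, a limit chosen after the values were seen, was found in 8 of 20 cytosolic and 4 of 16 mitochondrial members, against 15.9% of all genes tested. The summed level of cytosolic members was 5854 ± 62.5 CPM under control shRNA and 4248 ± 8.44 CPM under PRMT9 shRNA (mean ± SD, n = 2 each), which is 27.4% lower. For mitochondrial members the sums were 849.7 ± 2.17 CPM and 742.1 ± 9.77 CPM (mean ± SD, n = 2 each), which is 12.7% lower. In bulk RNA, fewer cells that express a gene and less RNA per cell cannot be told apart.

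**Figure D1:**
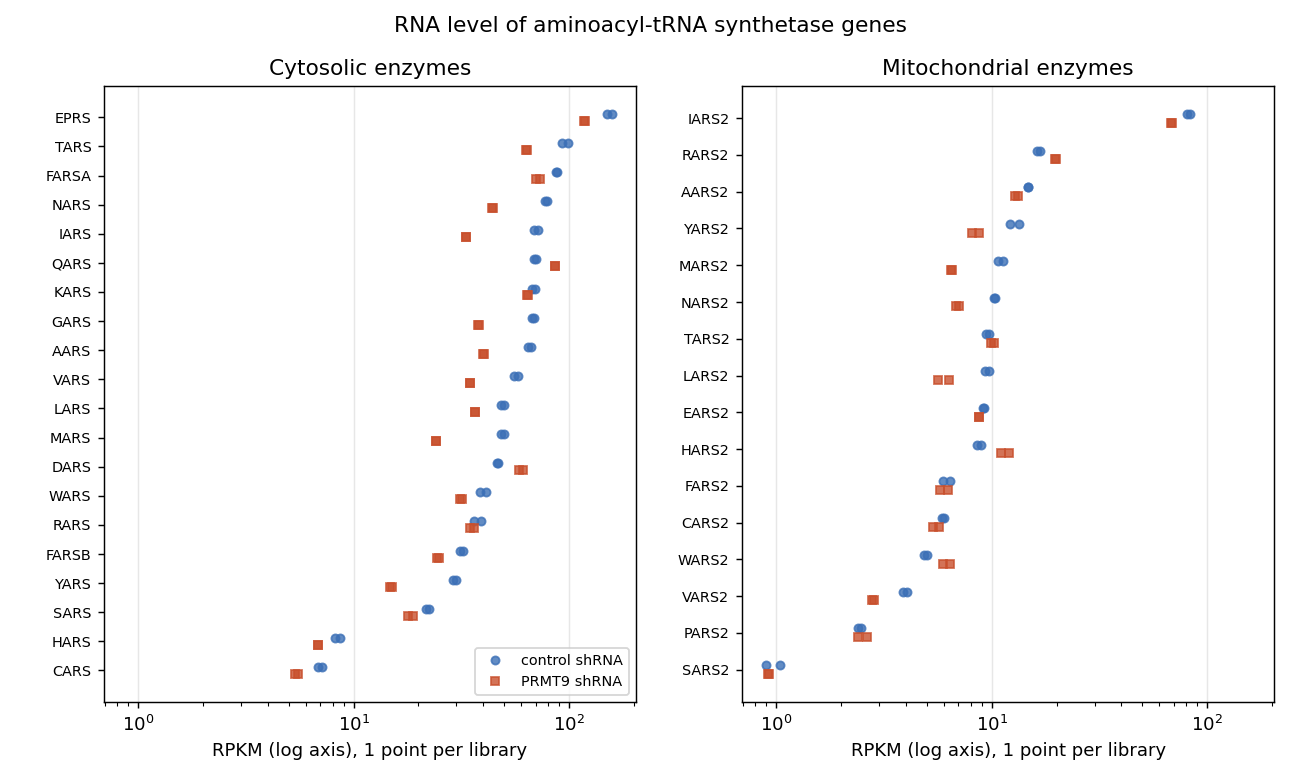
Deposited RPKM (reads scaled for exon length and library size, log axis) of each synthetase gene, 1 point per library, with control shRNA as circles and PRMT9 shRNA as squares, ordered by the control mean within the cytosolic and mitochondrial panels. In the cytosolic panel the knockdown squares lie to the left of the control circles for most genes and to the right for QARS and DARS, while the mitochondrial panel has HARS2, WARS2 and RARS2 to the right.

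Levels per exon length, given as the deposited RPKM, differed widely between members. Their order depends on the exon length given for each gene, such as 10037 bases for CARS and 5450 for EPRS. In the controls, cytosolic members ranged from 7.01 RPKM (CARS) to 153.8 RPKM (EPRS) with a median of 52.8 RPKM, and mitochondrial members from 0.969 RPKM (SARS2) to 81.7 RPKM (IARS2) with a median of 9.33 RPKM. IARS2 was the exception among mitochondrial enzymes, since it ranked at position 4 of the 36 in the controls and the next mitochondrial member, RARS2, at position 20. Knockdown changed the order within the cytosolic group. IARS went from position 6 to 14 and TARS from 2 to 6, whereas QARS went from 7 to 2 and DARS from 14 to 7. Several neighbours in the control order did not differ beyond their spread, such as QARS (69.3 ± 1.07 RPKM), KARS (68.4 ± 1.51 RPKM) and GARS (68.0 ± 1.23 RPKM), each as mean ± SD with n = 2 libraries. After knockdown these 3 were apart, at 86.0 ± 0.155, 64.3 ± 0.255 and 37.9 ± 0.204 RPKM (SD, n = 2 libraries each).

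The largest cytosolic falls were in IARS, MARS, YARS, GARS and NARS. IARS, the isoleucine enzyme (chromosome 9, 92210207 to 92293756, minus strand of GRCh38), was at 69.0 and 72.0 RPKM in the controls and at 33.3 RPKM in each knockdown library (log2 fold change -1.08, SE 0.02, adjusted p = 2.02e-16). MARS, the methionine enzyme that charges both the initiator and the elongator tRNA of the cytosol (chromosome 12, 57475445 to 57517569), was at 48.2 and 50.01 RPKM and then at 24.2 RPKM in each (-1.02, SE 0.02, adjusted p = 8.71e-16). For both genes the 2 groups are far apart relative to the libraries within them, and MARS shares 13.3% of its exonic bases with other genes, mainly ARHGAP9 on the opposite strand. YARS, the tyrosine enzyme, went from 28.96 and 29.87 RPKM to 15.13 and 14.74 RPKM (-0.98, SE 0.03, adjusted p = 5.90e-15). GARS, the glycine enzyme of both compartments (chromosome 7, 30594681 to 30634033), went from 67.1 and 68.9 RPKM to 37.8 and 38.1 RPKM (-0.84, SE 0.02, adjusted p = 1.07e-14). NARS, the asparagine enzyme, went from 77.4 and 79.3 RPKM to 43.9 and 44.4 RPKM (-0.82, SE 0.02, adjusted p = 8.92e-15). The groups do not overlap for any of these 5, as was the case for 20 of 20 cytosolic members in CPM and for 83.3% of all genes tested. The alanine, valine and threonine enzymes AARS, VARS and TARS also fell by more than 0.5, with log2 fold changes of -0.71, -0.70 and -0.60. AARS was at 64.5 and 66.6 RPKM and then at 40.1 and 40.0 RPKM. VARS was at 55.3 and 57.7 RPKM and then at 34.8 and 34.9 RPKM, and TARS at 93.2 and 99.2 RPKM and then at 63.2 and 63.6 RPKM.

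Another 10 cytosolic enzymes had smaller falls. LARS, the leucine enzyme that also takes part in leucine sensing by mTORC1, went from 48.2 and 50.1 RPKM to 36.7 and 36.5 RPKM (-0.42, SE 0.02, adjusted p = 1.50e-11). EPRS, the most abundant member, went from 149.9 and 157.7 RPKM to 118.3 and 117.5 RPKM (-0.38, SE 0.02, adjusted p = 2.07e-11). The 2 subunit genes of the phenylalanine enzyme moved by similar amounts from different levels. FARSA was at 87.2 and 87.7 RPKM and then at 73.1 and 70.4 RPKM (-0.28), and FARSB at 31.3 and 32.2 RPKM and then at 24.4 and 24.9 RPKM (-0.36). CARS, HARS and SARS, for cysteine, histidine and serine, fell by 0.36, 0.30 and 0.26 on the log2 scale. SARS was at 21.6 and 22.3 RPKM and then at 18.9 and 17.9 RPKM. KARS, the lysine enzyme of both compartments, and RARS, the arginine enzyme, had the smallest falls, with log2 fold changes of -0.09 (adjusted p = 0.00236) and -0.08 (adjusted p = 0.0427). With upper-quartile scaling both genes change sign, to 0.0023 and 0.011, and neither passes. In log2(RPKM + 1), KARS (limma adjusted p = 0.0521) and RARS (limma adjusted p = 0.229) do not pass either. The RPKM of RARS overlaps between groups, at 36.3 and 39.0 in the controls and 36.4 and 34.8 after knockdown. Of 14 alternative analyses, RARS kept its call in 4 and lost it in 10, DESeq2 (adjusted p = 0.212) and the filter at 1 CPM (edgeR adjusted p = 0.213) included. It also loses its call without control shRNA replicate 2 (-0.03, edgeR adjusted p = 0.5) and without PRMT9 shRNA replicate 2 (-0.04, edgeR adjusted p = 0.353).

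WARS, the tryptophan enzyme, is the synthetase best known as an interferon-induced gene, and its promoter sequence is given for that reason. It was at 38.5 and 41.1 RPKM in the controls and at 31.2 and 31.8 RPKM after knockdown (log2 fold change -0.33, SE 0.03, adjusted p = 4.22e-09). Both knockdown libraries lay below both controls. One of the 2 RefSeq windows of WARS holds a match to an interferon response element motif (GAAA, any 2 bases, GAAA), whose first base is at -55 from that start. This motif, searched on both strands, stood in 3.57% of all windows. EARS2 was the only other member with a match. The stretch is from GRCh38.p14 with the match in capitals.
WARS, chr14:100375323-100375422, minus strand: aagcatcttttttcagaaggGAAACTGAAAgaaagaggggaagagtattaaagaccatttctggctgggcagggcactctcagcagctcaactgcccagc

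DARS and QARS rose. DARS, the aspartate enzyme (chromosome 2, 135906677 to 135986100, minus strand), was at 46.2 and 46.9 RPKM in the controls and at 58.8 and 61.0 RPKM after knockdown (log2 fold change 0.37, SE 0.03, adjusted p = 1.03e-09). QARS, the glutamine enzyme (chromosome 3, 49095932 to 49105135, minus strand), was at 68.5 and 70.0 RPKM and then at 86.1 and 85.9 RPKM (0.32, SE 0.02, adjusted p = 5.00e-10). Both knockdown libraries lay above both controls for each gene. Both enzymes belong to the multisynthetase complex, whose 8 catalytic members therefore split into 6 falls and 2 rises, with a median of -0.23, while the 12 cytosolic members outside it were 12 falls with a median of -0.48. KARS and RARS are among the 6, and with upper-quartile scaling or in log2(RPKM + 1) the complex has 4 falls, 2 rises and 2 genes not past the threshold. Over all genes tested 34.5% fell. The complex thus held the highest and the lowest change among cytosolic members, DARS and IARS. By catalytic class, the 10 cytosolic class I and the 10 cytosolic class II genes each had 9 falls and 1 rise, with medians of -0.40 and -0.33. Of mitochondrial members, the 9 of class I had 6 falls and 2 rises (median -0.26), and the 7 of class II had 2 falls and 1 rise (median -0.03). Neither the difference between classes nor that between complex and other members was tested. Of the bases in DARS exons, 7.60% are shared with its antisense gene DARS-AS1, which had 552 counts over the 4 libraries against 26581 for DARS.

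**Figure D2:**
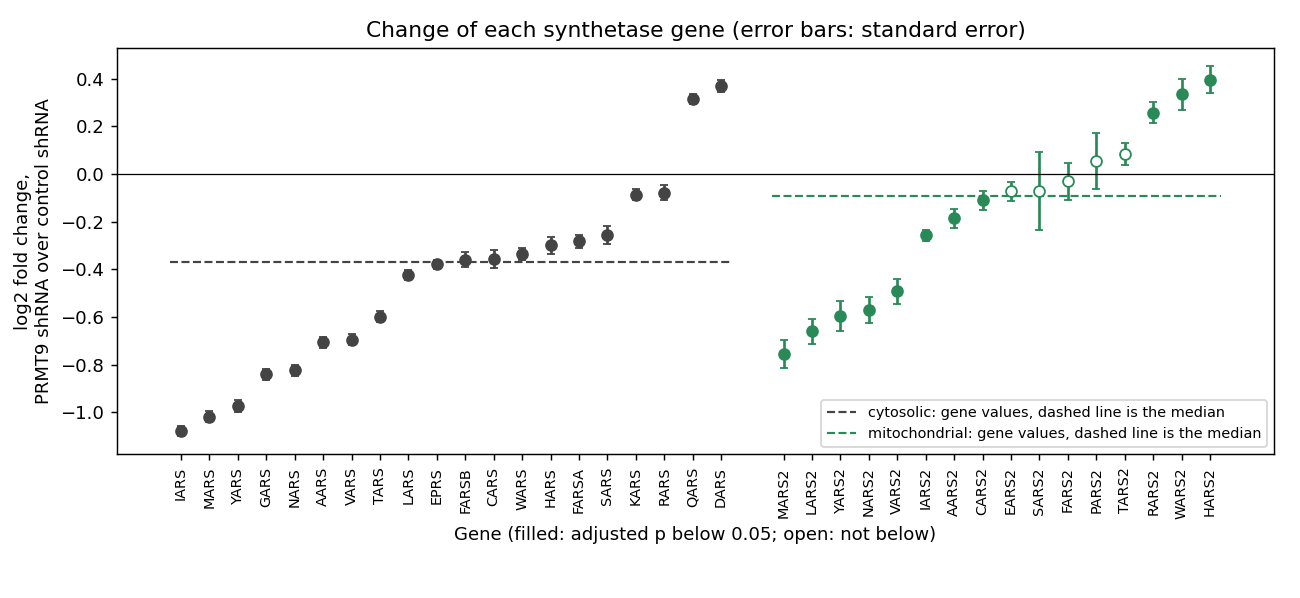
Log2 fold change of each synthetase gene (PRMT9 shRNA over control shRNA) with its standard error, cytosolic genes on the left and mitochondrial genes on the right, filled where the adjusted p is below 0.05. Cytosolic values run from -1.08 (IARS) to 0.37 (DARS) around a median of -0.37, and mitochondrial values from -0.75 (MARS2) to 0.40 (HARS2) around a median of -0.09.

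Among mitochondrial enzymes the largest falls were in MARS2, LARS2, YARS2, NARS2 and VARS2. MARS2, the mitochondrial methionine enzyme (chromosome 2, 197705369 to 197708387), was at 11.3 and 10.7 RPKM in the controls and at 6.46 and 6.56 RPKM after knockdown (log2 fold change -0.75, SE 0.06, adjusted p = 5.20e-09). LARS2, for leucine (chromosome 3, 45388506 to 45549421), was at 9.28 and 9.68 RPKM and then at 6.34 and 5.66 RPKM (-0.66, SE 0.05, adjusted p = 6.42e-09). The methionine, tyrosine and asparagine enzymes of both compartments were thus among the 5 largest falls of their groups. YARS2, for tyrosine, was at 12.2 and 13.4 RPKM and then at 8.14 and 8.71 RPKM (-0.60, SE 0.06, adjusted p = 3.05e-07). NARS2, for asparagine, was at 10.3 and 10.4 RPKM and then at 6.82 and 7.05 RPKM (-0.57, SE 0.05, adjusted p = 7.30e-08). VARS2, for valine, was at 3.88 and 4.05 RPKM and then at 2.79 and 2.84 RPKM (-0.49, SE 0.05, adjusted p = 3.07e-07). Of its exonic bases, 22.0% are shared with exons of GTF2H4 on the same strand, a gene listed at 4 counts over all libraries. The part of the shared bases in the level of VARS2 was not tested. The knockdown libraries lay below the controls for all 5. In CPM the groups did not overlap for 13 of 16 mitochondrial members, against 83.3% of all genes tested. The remaining falls were in the abundant IARS2, at 80.4 and 83.1 RPKM and then at 68.7 and 67.8 RPKM (-0.26), in AARS2 (-0.19) and in CARS2 (-0.11, adjusted p = 0.0234). CARS2 kept its call in 4 of 14 alternative analyses. With upper-quartile scaling its log2 fold change was -0.02 (edgeR adjusted p = 0.658). It also loses its call without control shRNA replicate 1 (-0.11, edgeR adjusted p = 0.0652), control shRNA replicate 2 (-0.10, edgeR adjusted p = 0.0923) or PRMT9 shRNA replicate 2 (-0.07, edgeR adjusted p = 0.253), and it does not pass in DESeq2 (adjusted p = 0.181).

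The mitochondrial enzymes for histidine, tryptophan and arginine rose. HARS2 (chromosome 5, 140691426 to 140699291) was at 8.91 and 8.54 RPKM in the controls and at 11.996 and 10.99 RPKM after knockdown (log2 fold change 0.40, SE 0.06, adjusted p = 8.75e-06). WARS2 (chromosome 1, 119031216 to 119140671) was at 4.832 and 4.995 RPKM and then at 6.44 and 5.95 RPKM (0.34, SE 0.06, adjusted p = 2.09e-04). RARS2 was at 16.7 and 16.3 RPKM and then at 19.6 and 19.8 RPKM (0.26, SE 0.04, adjusted p = 5.83e-05). Both knockdown libraries lay above both controls for the 3 genes, whose cytosolic counterparts HARS, WARS and RARS had log2 fold changes below 0 (RARS not so with upper-quartile scaling). HARS was at 8.19 and 8.65 RPKM in the controls and at 6.83 and 6.82 RPKM after knockdown. HARS and HARS2 lie head to head on opposite strands and share 437 exonic bases. Whether the counting used strand is not given in the sources used here, so reads from the shared bases could be assigned to either gene, and their part in the opposite changes was not tested.

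Another 5 mitochondrial members did not pass the test. TARS2, for threonine, was at 9.45 and 9.66 RPKM in the controls and 9.96 and 10.2 RPKM after knockdown (log2 fold change 0.08, adjusted p = 0.112). EARS2, for glutamate, was at 9.24 and 9.13 RPKM and then at 8.69 and 8.75 RPKM (-0.07, adjusted p = 0.125). FARS2, for phenylalanine, was at 5.93 and 6.38 RPKM and then at 5.75 and 6.26 RPKM (-0.03, adjusted p = 0.75). In RPKM, libraries of the 2 groups overlap for FARS2 and not for TARS2 and EARS2. PARS2, for proline, was at 2.41 and 2.47 RPKM and then at 2.40 and 2.63 RPKM (0.05, adjusted p = 0.705). SARS2, for serine, was at 0.900 and 1.04 RPKM and then at 0.928 and 0.911 RPKM (-0.07, adjusted p = 0.72). Both genes overlap between groups. SARS2 rested on 89 to 100 counts per library with an SE of 0.16, and 56.98% of its exonic bases are shared with other annotated genes, so a change of a size seen in other members was not detectable at this depth.

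Within an amino acid, the cytosolic gene had the lower log2 fold change in 16 of 17 pairs. Of the pairs, 2 share EPRS and 2 share FARS2. Aspartate, glycine, lysine and glutamine have no mitochondrial partner in the set. This comparison uses ratios within a library, so that library scaling cancels. The ratio of cytosolic to mitochondrial RPKM was lower in both knockdown libraries than in both controls for 16 pairs and higher for 1, and it overlapped for 0. For single genes, the groups did not overlap for 83.3% of all genes tested. The share for ratios of other gene pairs was not computed. The ratio of IARS to IARS2 was 0.858 and 0.866 in the controls and 0.484 and 0.492 after knockdown (difference of log2 fold changes -0.82, SE 0.03). By RPKM, IARS was thus slightly below its mitochondrial counterpart in the controls and well below it after knockdown. That order depends on the exon lengths used, 7401 bases for IARS and 4165 for IARS2. In mean CPM, which is not scaled for length, IARS was above IARS2 in the controls (521.7 against 340.4). After knockdown it was below IARS2 (246.9 against 284.7). The differences were -0.70 for HARS against HARS2 (SE 0.07), -0.68 for TARS against TARS2 (SE 0.05) and -0.67 for WARS against WARS2 (SE 0.07). The median difference over the 17 pairs was -0.33. LARS was the exception, with a ratio to LARS2 of 5.20 and 5.17 in the controls and 5.79 and 6.45 after knockdown (difference 0.24, SE 0.06). The smallest difference relative to its error was that of SARS against SARS2 (-0.19, SE 0.17). Summed over the members, cytosolic RPKM was 5.397 and 5.486 times the mitochondrial RPKM in the controls and 4.63 and 4.67 times after knockdown. With 2 libraries against 2, an exact two-sided permutation test cannot go below p = 0.3333, so these differences are given with their errors and without a test.

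**Figure D3:**
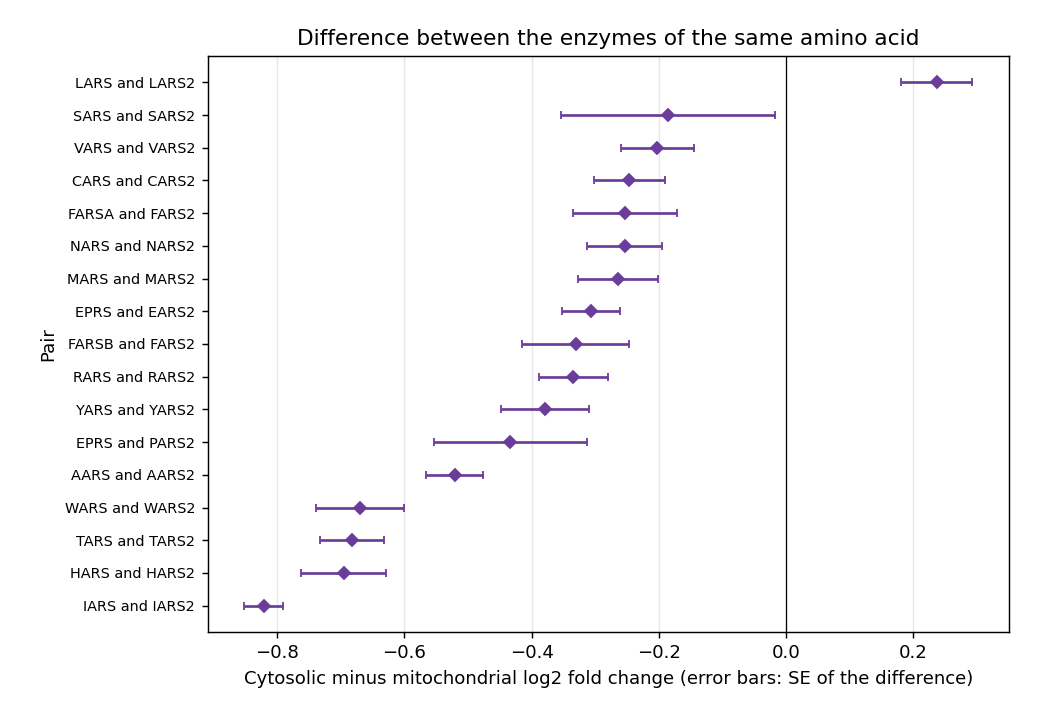
Cytosolic minus mitochondrial log2 fold change for each pair of genes of the same amino acid, with the standard error of the difference (2 genes taken as independent). The differences run from -0.82 for IARS and IARS2 to 0.24 for LARS and LARS2, and 16 of 17 lie below 0.

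The cytosolic genes whose printed promoters hold the composite motif had the larger falls. All 7 carriers fell, their median change was -0.82 (log2), and they covered a range of -1.08 (IARS) to -0.36 (CARS), and 6 of them fell by more than 0.5. The 9 cytosolic members with an entry and no match had 8 falls and 1 rise, a median of -0.28, a range of -0.38 (EPRS) to 0.32 (QARS), and 0 falls of more than 0.5. CARS was the only carrier within the range of the others. YARS and VARS, which also fell by more than 0.5, have no entry. Among mitochondrial members, YARS2 (-0.60) was the carrier, while MARS2 (-0.75), LARS2 (-0.66) and NARS2 (-0.57) fell by similar amounts without a match. Carriers of the motif over all genes did not share such a fall: the 285 tested genes with an entry and a match had a median of 0.02, with 38.6% of them falling, against a median of -0.02 and 39.5% among 10189 without one. Falls by more than 0.5 made up 21.4% of the carriers and 17.0% of the others. An E-box, CACGTG, the site of MYC and related factors, was found for IARS, CARS2, EARS2 and MARS2. These are 1 of 16 cytosolic and 3 of 14 mitochondrial members with an entry, against 8.77% of all symbols when the windows of a gene are joined. No test was made of these groups, since the members were chosen with their values known.

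**Figure D4:**
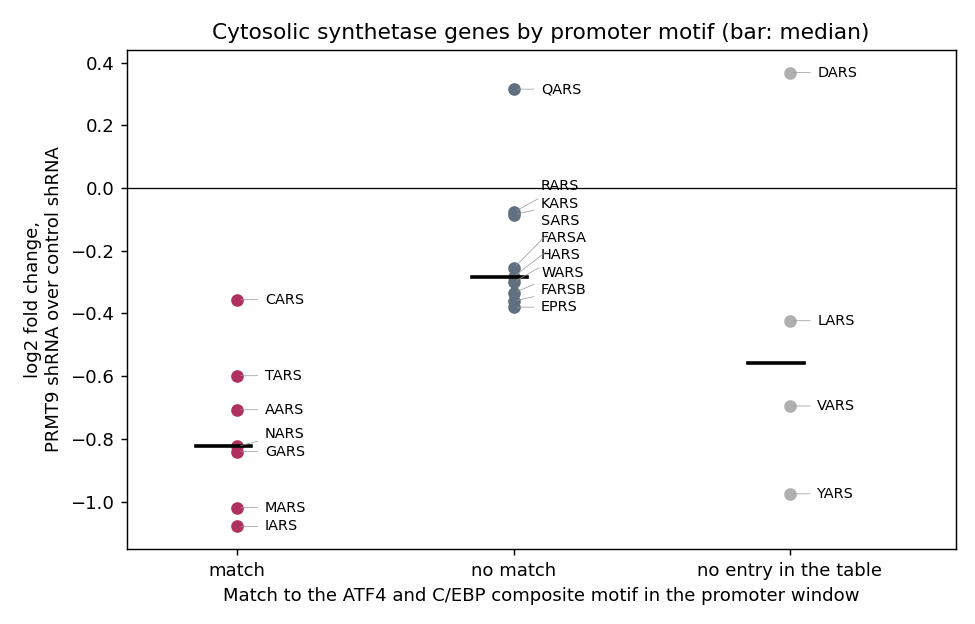
Log2 fold change of the 20 cytosolic genes by whether a RefSeq promoter window holds the composite ATF4 and C/EBP motif, with the group median as a bar. The 7 genes with a match lie between -1.08 and -0.36, the 9 without one between -0.38 and 0.32, and 4 genes have no entry.

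Other genes of tRNA charging were taken from a list of 26, of which 25 were tested, with 12 falls, 6 rises and 7 not past the threshold (median -0.11). The share called, 72%, is near the 68% of all genes tested. EEF1G, a subunit of elongation factor 1, is listed at 0 counts in every library. Every cell uses this gene, so the 0 may come from how reads were counted and does not show that it was not expressed. The scaffolds of the multisynthetase complex were split. EEF1E1 was at 5.04 and 5.59 RPKM in the controls and at 2.11 and 2.46 RPKM after knockdown (log2 fold change -1.21, SE 0.11, adjusted p = 3.91e-08), and AIMP2 at 31.5 and 32.9 RPKM and then at 21.1 and 20.7 RPKM (-0.62, adjusted p = 8.15e-10). AIMP1, the scaffold that anchors the arginine enzyme, was at 24.8 and 25.3 RPKM and then at 27.5 and 28.7 RPKM (0.17, adjusted p = 3.07e-04). The fall of EEF1E1 was about as large as that of IARS (-1.08) given its SE, whereas AIMP1 rose. TRNT1, which adds the CCA end that every synthetase charges, went from 9.98 and 10.2 RPKM to 4.94 and 5.26 RPKM (-0.98, SE 0.05, adjusted p = 8.83e-12). TARSL2, a second cytosolic threonine enzyme gene outside the 36, rose from 1.34 and 1.31 RPKM to 2.19 and 2.42 RPKM (0.80, SE 0.10, adjusted p = 2.77e-06), opposite to TARS.

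Partners that act after charging also differed in direction. EEF1A1, which carries charged tRNA to the ribosome, rose from 3611 and 3818 RPKM to 4749 and 4772 RPKM (log2 fold change 0.36, SE 0.02, adjusted p = 1.76e-12), and its exchange factor subunit gene EEF1B2 rose by 0.18, while EEF1D fell by 0.11 on the log2 scale. Of the mitochondrial amidotransferase, which converts glutamate on glutamine tRNA and takes the place of a glutamine enzyme there, QRSL1 fell by 0.56 on the log2 scale, and GATB (0.06) and GATC (0.01) did not pass. MTFMT, which formylates the initiator methionine tRNA of mitochondria, fell by 0.55 and the mitochondrial elongation factor gene TUFM by 0.32 on the log2 scale. These falls stand beside that of MARS2, which charges the same methionine tRNA. The selenocysteine genes PSTK, which acts on serine-charged tRNA, and SEPSECS rose by 0.32 and 0.22.

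The genes that sense uncharged tRNA were examined with ATF4. ATF4 RNA was at 178.4 and 180.6 RPKM in the controls and at 142.5 and 141.8 RPKM after knockdown (log2 fold change -0.33, SE 0.02, adjusted p = 2.13e-10). GCN1, an activator of the kinase GCN2, fell by 0.44 on the log2 scale (adjusted p = 1.69e-11). EIF2AK4, which encodes GCN2, was at 3.82 and 3.93 RPKM and then at 4.14 and 3.88 RPKM (0.05, adjusted p = 0.336), and IMPACT, an inhibitor of GCN2, did not pass either (-0.07, adjusted p = 0.196). ATF4 is regulated largely at translation, so its RNA does not measure its protein, and the part of ATF4 in the levels of the synthetases was not tested.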

How the data were processed

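For the 4 libraries the authors deposited whole-number counts by gene, together with RPKM values, exon lengths and coordinates. The submitters' processing notes name GRCh38, Trimmomatic 0.39, STAR 2.7.2a and SAMtools 1.10 but not what each did. How reads were counted, including strand, reads with several matches and the gene models, is not given in the sources used here. Genes were kept with filterByExpr (minimum count 10), leaving 15193 genes with 99.9% of the counts. The test was edgeR 4.0.16 glmQLFit (legacy = FALSE, robust) and glmQLFTest with TMM scaling and a group term in R 4.3.3, with Benjamini-Hochberg adjustment over all genes tested. The fit was also run on simulated counts that gave all genes the same spread between libraries, estimated from these 4 libraries. That run cannot show how the test behaves where the spread differs between genes or cultures. CPM values use TMM factors, and RPKM is the authors' own. The members and lists were chosen with earlier results of these data known. By rule, values per library are given for PRMT9, the 5 largest falls, every rise and every member not past the threshold in each compartment, and their partners; other members shown were added. Exon overlaps use GENCODE 29, and promoters RefSeq (GRCh38.p14). Alternatives comprised other scalings and filters, DESeq2 1.42.0, limma 3.58.1 (voom, and log2 RPKM with pseudocounts of 1 and 0.1), the replicate number as a block, and each library left out.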

Additional observations from a re-analysis of the deposited data

How the results depend on the processing

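Over 14 alternatives, 28 of the 36 synthetase genes kept both their direction and their side of the threshold in every one. The other 8 were KARS, RARS, CARS2, EARS2, FARS2, PARS2, SARS2 and TARS2, all with changes close to 0. Upper-quartile scaling moved the median of all genes to 0.09 and that of cytosolic synthetases to -0.28 and of mitochondrial synthetases to -0.0031, and it turned the direction of KARS (0.0023), RARS (0.011), EARS2 (0.015), FARS2 (0.059) and SARS2 (0.018), none of which passed. A filter at 1 CPM in 2 libraries gave a cytosolic median of -0.34 and turned FARS2 (0.0021). TARS2 passed as a rise with upper-quartile scaling (0.17, edgeR adjusted p = 0.0028) and with the 1 CPM filter (0.12, edgeR adjusted p = 0.0282). In log2(RPKM + 1), with or without a filter, the cytosolic median was -0.37. Leaving out each library gave cytosolic medians from -0.38 to -0.34 and mitochondrial medians from -0.13 to -0.08. FARS2 turned without control shRNA replicate 2 (0.021) and without PRMT9 shRNA replicate 1 (0.027; range -0.094 to 0.027), SARS2 without control shRNA replicate 2 (range -0.15 to 0.032) and PARS2 without PRMT9 shRNA replicate 2 (range -0.015 to 0.11). The number of cytosolic falls was 16 to 18, and that of mitochondrial falls 7 or 8. DESeq2 called 8350 genes over all and log2(RPKM + 1) without a filter 7516, against 10327. The labels number libraries 1 and 2 in each group and do not say whether the numbers pair the samples. Deviations of same-numbered libraries from their group means correlated at -0.031, which with 2 pairs cannot settle it. With the replicate number as a block the test called 10307 genes, with 18 cytosolic falls, 2 cytosolic rises, 8 mitochondrial falls and 3 mitochondrial rises, and the medians were -0.37 and -0.09. The cause of these shifts was not tested.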
